A study of Mus musculus with 2 samples.

Results

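Oxidative phosphorylation genes of both genomes were examined in mouse embryonic stem cells (mESCs) with and without *Smad1* and *Smad5*. The members are the genes whose symbol starts with mt-, Ndufa, Ndufb, Ndufc, Ndufs, Ndufv, Cox4 to Cox8, Uqcr or Atp5, other than those marked -ps (pseudogenes), with at least 50 UMIs (unique molecular identifiers, 1 per counted RNA molecule) over both libraries. Of 31053 genes in the files, 102 matched and 98 passed, 13 of the mitochondrial genome and 85 of the nucleus. The 4 others were *Cox6a2* (1 UMI in WT, 0 in the other library), *Cox8b* (0 and 1), *Ndufa4l2* (19 and 25) and a second identifier of *Atp5o* (0 and 1).

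There were 2 libraries, made with droplet-based 3′ single-cell chemistry. WT was the parental, feeder-free E14 line, and S1/5 dKO was an E14 derivative in which CRISPR–Cas9 had been used against *Smad1* and *Smad5*, which encode the SMADs that carry bone morphogenetic protein signals. Both grew on gelatin in the same serum and LIF medium (15% FBS, 1000 U/ml LIF), and which dKO line was loaded is not stated in the sources used here. Each condition had 1 library, so no test between conditions was possible. All intervals are 95% intervals that cover counting error only, not the spread between cultures. They are exact, other than that of the mitochondrial to nuclear ratio, which is a normal approximation.

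A barcode was taken as a cell where it held 1000 or more detected genes and no more than 5% mt- UMIs, 2236 in WT with 95965242 UMIs and 2910 in the other library with 109020533. Median UMIs per cell were 38662 and 34548.5, and 0 cell barcodes were shared. mESC markers (*Pou5f1*, *Sox2* and 5 others) summed to 7109 and 7347 CPM (counts per 1000000 UMIs), against 0.802 and 1.05 CPM for 6 fibroblast markers and 181 and 153 CPM for 5 endoderm markers. *Sparc* alone gave 179 and 151 of the last sum, and the other 4 markers 1.43 and 1.61 CPM together. *Smad1* had 13.4 CPM (WT) and 9.17 CPM (dKO). *Smad5* had 6.05 and 9.09 CPM, higher where the label says it was knocked out. Counts at the 3′ end of an mRNA need not report an edit elsewhere in it, so the second library is called the dKO-labelled library. In that library 98 of 102 genes of a stretch of chromosome 8 that ends at *Smad1* (GRCm38, 70139499 to 79399518) were lower. Of all genes with at least 50 UMIs, 52.1% were lower. The stretch had a median log2 ratio of −0.53, and *Smad1*, itself inside it, was at −0.55. Its bounds were chosen with earlier results of these data known, so the count is only a description. None of the 98 members lay in this stretch.

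Oxidative phosphorylation makes ATP from a proton gradient across the inner mitochondrial membrane. Complexes I, III and IV pump the protons, complex II feeds in electrons without pumping, and complex V, the ATP synthase, uses the gradient. Mitochondrial DNA encodes a small set of core subunits and is transcribed inside the organelle as long RNAs that are cut into mRNAs. The other subunits come from nuclear genes, are made in the cytosol and are imported, so complexes I, III, IV and V each draw on both genomes.

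Neighbouring mitochondrial genes can overlap, which bears on how their UMIs are assigned. 2 pairs share 1 mRNA each, *mt-Atp8* with *mt-Atp6* and *mt-Nd4l* with *mt-Nd4*. UMIs were counted per gene, so 13 mitochondrial mRNAs, where a figure names them, stands for 13 genes. The bases that both reading frames of a pair cover are in capitals below, between 20 flanking bases on each side, on the plus strand of chrM of GRCm38 (chrM:7907-7989 and chrM:10147-10193).
mt-Atp8/mt-Atp6: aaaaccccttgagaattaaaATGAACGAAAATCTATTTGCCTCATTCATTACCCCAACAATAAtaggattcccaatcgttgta
mt-Nd4l/mt-Nd4: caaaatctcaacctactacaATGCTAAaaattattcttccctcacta
The first pair overlapped by 43 bases and the second by 7. In each run, the capitals open with the start codon of the downstream gene and close with the stop codon of the upstream gene.

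The 2 genomes differed between the libraries in opposite directions. The 13 mitochondrial genes made up 1.74% of all UMIs in WT (1.738% to 1.743%) against 1.87% under the dKO label (1.863% to 1.868%). The log2 ratio, dKO label over WT, was 0.10 (0.097 to 0.103). The 85 nuclear members made up 3.36% of WT UMIs (3.357% to 3.364%) and 3.25% of the others (3.246% to 3.253%), which gives a log2 ratio of −0.05 (−0.051 to −0.046). Each genome's intervals did not overlap between the libraries. Mitochondrial UMIs per nuclear member UMI were 0.518 in WT and 0.574 in the dKO-labelled library, 1.11-fold apart (log2 0.15, 0.14 to 0.15).

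**Figure D1:**
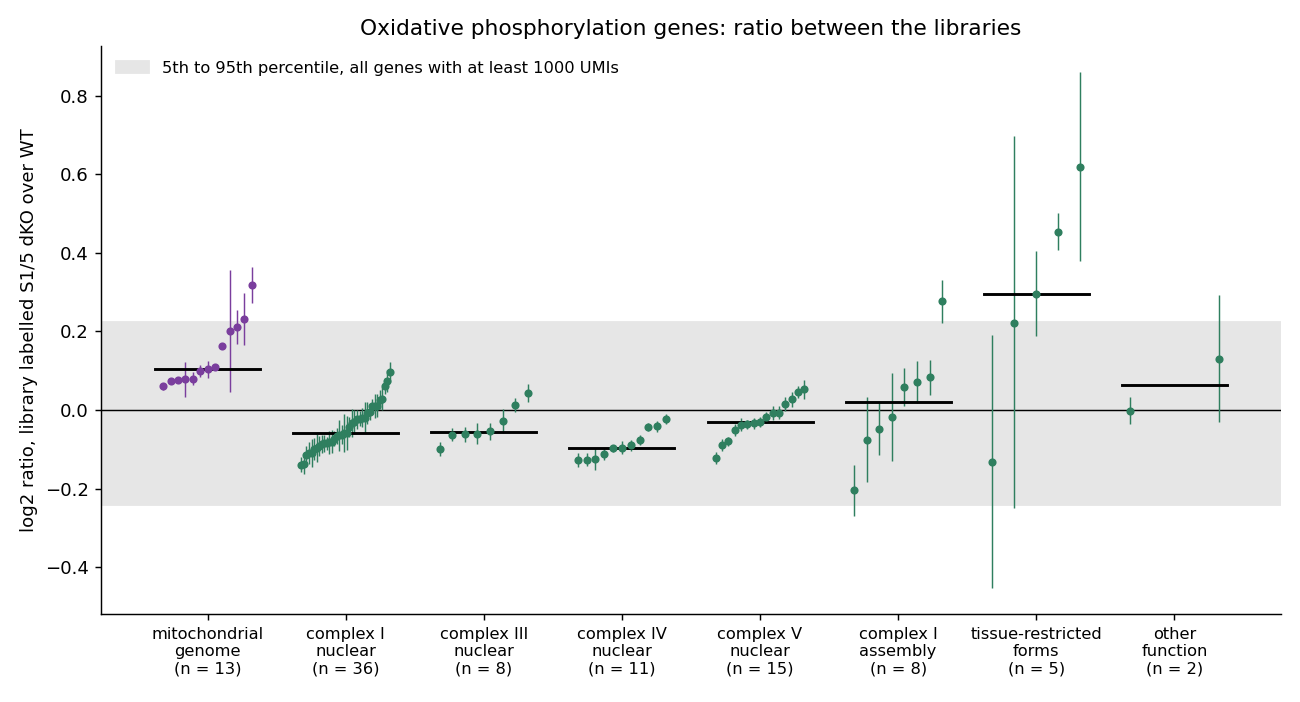
Log2 ratio of each member (y axis, dKO label over WT; vertical lines, exact 95% counting intervals; black bars, medians) by genome, complex and class (x axis); the grey band holds the 5th to 95th percentile of all genes with at least 1000 UMIs. All 13 mitochondrial genes sit above 0 and all 11 widely expressed nuclear subunits of complex IV below it, and 6 members sit above the band (*Cox4i2*, *Cox6b2*, *mt-Nd3*, *Cox7a1*, *Ndufaf4* and *mt-Atp8*).

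Log2 ratios of single genes with at least 1000 UMIs ran from −0.24 at the 5th percentile to 0.23 at the 95th, with a median of −0.0016. At least 25% higher under the dKO label were 2 of 98 members, against 6.85% of all 13654 genes with at least 50 UMIs, and at least 20% lower (the same fold) were 0 of 98, against 8.6%. Among genes with at least 1000 UMIs, 1 of 95 members and 2.3% of all genes were that much higher, and 0 of 95 and 2.71% that much lower. All 13 mitochondrial members were above 0, and the nuclear members went both ways, most of them down. The counting interval lay above 0 for 13 of 13 mitochondrial and 14 of 82 nuclear members with at least 1000 UMIs, against 27.2% of all genes of that depth, and below 0 for 0 of 13 and 48 of 82, against 23.7%. Deeply counted genes have narrow intervals, and the nuclear subunits had a median of 75352.5 UMIs. With at least 20000 UMIs, the interval lay below 0 for 45 of 69 nuclear members (65.2%) and 31.3% of all 1520 genes, and above 0 for 8 of 69 (11.6%) and 46.2%. All 8 mitochondrial members of that depth lay above 0.

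The mitochondrial mRNAs of complex IV encode its catalytic core. *mt-Co1*, which holds the oxygen-reducing centre, had 1881 CPM in WT and 1961 in the dKO-labelled library, a log2 ratio of 0.06 (0.05 to 0.07) and the lowest of the 13. *mt-Co2* had 3512 and 3788 CPM (log2 0.11), and *mt-Co3* 2853 and 3006 CPM (log2 0.08). For complex III, *mt-Cytb*, which encodes cytochrome b, had 3084 and 3452 CPM. Its log2 ratio of 0.16 (0.16 to 0.17) was the highest of the 5 most counted mitochondrial mRNAs, which together held 89.8% of mitochondrial UMIs in WT and 89.7% in the other library.

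The core membrane subunits of complex I had fewer UMIs. *mt-Nd1* had 585 and 619 CPM (log2 0.08), *mt-Nd2* 334 and 359 (log2 0.10), *mt-Nd4* 592 and 634 (log2 0.10) and *mt-Nd5* 77.7 and 82.1 (log2 0.08). *mt-Nd3* had 67.4 CPM in WT and 84.1 in the dKO-labelled library, the highest log2 ratio of the 13 at 0.32 (0.27 to 0.36), just short of 25% higher. *mt-Nd6*, the 1 member on the opposite strand of the mitochondrial DNA, had 6.35 and 7.29 CPM (log2 0.20, 0.05 to 0.36). All 13 intervals lay above 0. With every cell thinned at random to 10000 UMIs the log2 ratio of *mt-Nd5* was −0.0029 (−0.09 to 0.08) and that of *mt-Nd6* 0.07 (−0.24 to 0.38), and 12 of the 13 values stayed above 0.

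In both overlapping pairs printed above, the upstream gene had fewer UMIs and the higher ratio. The genes of a pair share an mRNA, so these are UMIs assigned to each gene, not levels of separate mRNAs. *mt-Atp8* had 34.3 CPM in WT and 40.3 in the dKO-labelled library (log2 0.23, 0.17 to 0.30), and *mt-Atp6*, the proton-channel subunit of complex V, 4296 and 4526 CPM (log2 0.08, 0.07 to 0.08). *mt-Nd4l* had 83.1 and 96.2 CPM (log2 0.21, 0.17 to 0.25), against log2 0.10 (0.08 to 0.12) for *mt-Nd4*. Within a pair the intervals did not overlap. They did when cells were thinned to 10000 UMIs, where *mt-Atp8* was at 0.12 (−0.01 to 0.25) and *mt-Nd4l* at 0.17 (0.09 to 0.25), beside 0.07 for *mt-Atp6* and 0.10 for *mt-Nd4*. Among the mitochondrial genes, CPM was highest for *mt-Atp6* and lowest for *mt-Nd6* (6.35 in WT and 7.29 in the other library).

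**Figure D2:**
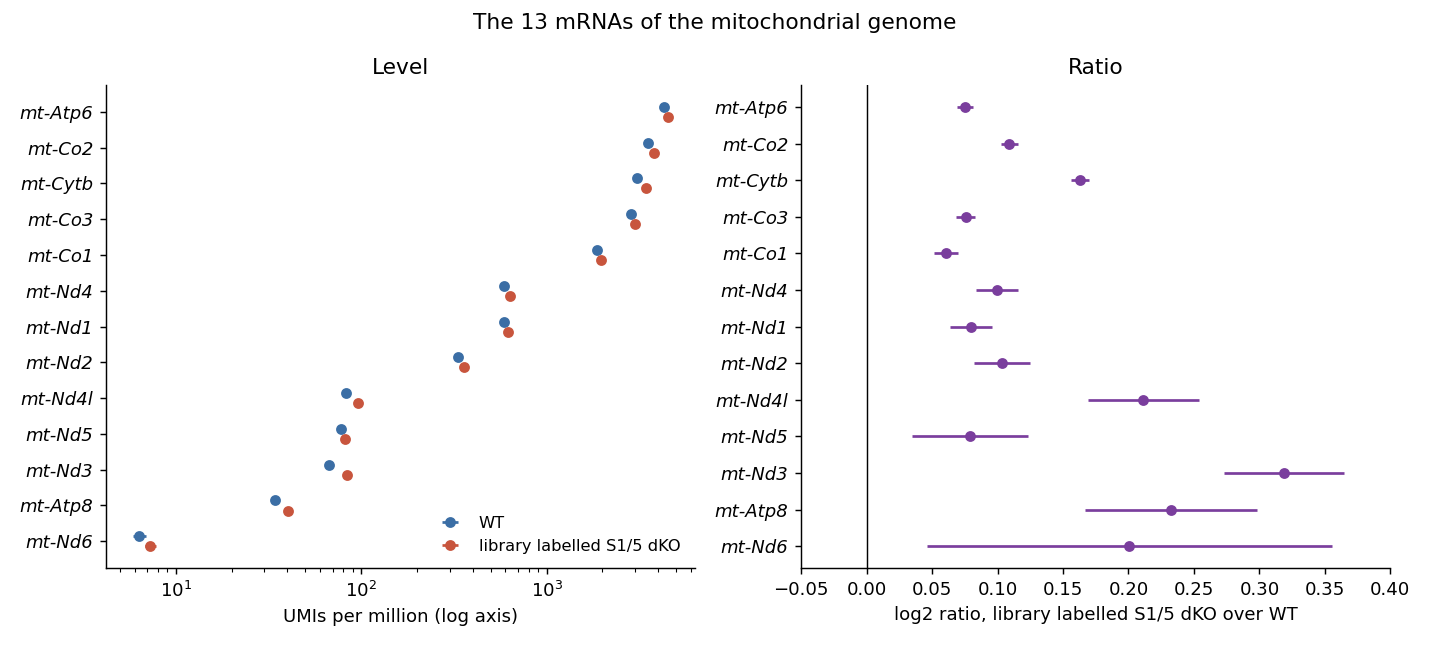
Level of the 13 mitochondrial genes in each library (left, CPM, log axis) and the log2 ratio of the libraries (right), with exact 95% counting intervals where wider than the point. Levels span 6.35 to 4296 CPM in WT, and every ratio lies above 0, from 0.06 for *mt-Co1* to 0.32 for *mt-Nd3*.

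Parts of the mitochondrial genome have copies in nuclear DNA. Of the 31-base words in the last 500 exon bases, at least 50% occurred in another annotated gene for 6 of 13 mitochondrial members (*mt-Co1*, *mt-Co2*, *mt-Atp6*, *mt-Co3*, *mt-Nd3* and *mt-Nd4l*) and for 5 of 85 nuclear ones (*Atp5h*, *Atp5l*, *Atp5o*, *Ndufs3* and *Uqcrb*). The sharing pseudogenes of those 6 were not among the genes counted, and their part in the counts was not tested. All 13 mitochondrial members lay above 0, with more sharing or with less, which does not measure what the pseudogenes add or take.

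Within each complex the mitochondrial sum was higher and the nuclear sum lower in the dKO-labelled library. For complex I the 7 mitochondrial subunits had a log2 ratio of 0.11 and the 36 nuclear ones −0.05, and mitochondrial UMIs per nuclear UMI were 0.189 in WT and 0.210 in the other library. For complex III the values were 0.16 for *mt-Cytb* and −0.04 for the sum of 8 nuclear subunits, and the ratio of the genomes was 1.01 and 1.17, the widest gap of the 4 complexes (log2 0.21). For complex IV they were 0.09 for 3 mitochondrial and −0.08 for 11 nuclear subunits, with ratios of 0.817 and 0.915. For complex V they were 0.08 for 2 mitochondrial and −0.03 for 15 nuclear subunits, with ratios of 0.407 and 0.439.

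Of the 70 widely expressed nuclear subunits, 56 (80.0%) had a log2 ratio below 0, against 50.6% of all genes with at least 1000 UMIs and 42.6% of those with at least 20000. Their median was −0.05, and the 2 sets of all genes had medians of −0.0016 and 0.02. The nuclear members as a whole had a median of −0.04, with 48 intervals below 0, 15 above and 22 that held 0. They lay on 19 chromosomes.

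In complex IV all 11 nuclear subunits and their intervals lay below 0, with a median of −0.10. *Cox4i1*, the widely expressed form of subunit 4, had 1846 CPM in WT and 1725 in the dKO-labelled library (log2 −0.10). *Cox6b1*, which lies between the monomers of the complex IV dimer, had 561 and 514 CPM (log2 −0.13), *Cox7b* 579 and 530 (log2 −0.13) and *Cox6a1* 227 and 208 (log2 −0.12). *Cox8a* (997 and 982 CPM, log2 −0.02) was nearest to 0. *Ndufa4*, named for complex I but now known as a complex IV subunit, had 859 and 807 CPM (log2 −0.09).

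Complex I was more mixed, with 28 of 36 nuclear subunits below 0, 22 intervals below and 4 above. *Ndufb8*, an accessory subunit of the membrane arm, was lowest with 455 CPM in WT and 413 in the dKO-labelled library (log2 −0.14, −0.16 to −0.12). *Ndufs5*, another accessory subunit, had 234 and 213 CPM (log2 −0.14). Its assembly factors, which help build complex I but are not part of it, did not share that direction. *Ndufaf1* had 39.8 and 34.5 CPM (log2 −0.20, −0.27 to −0.14), the lowest ratio of all nuclear members, and *Ndufaf4* had 49.4 and 59.8 CPM (log2 0.28, 0.22 to 0.33). Of 8 assembly factors, 4 lay above 0 and 4 below, with a median of 0.02. Their intervals lay above 0 for 4 and below for 1, and 3 held 0. Their sum had a log2 ratio of 0.054 (0.033 to 0.075).

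Complex III had 6 of 8 and complex V 11 of 15 nuclear subunits below 0. The 3 *Atp5g* genes encode the same mature subunit c of the rotor of complex V and differ in their import sequences. *Atp5g1* held 46.0% of the 3 genes' UMIs in WT and 44.9% in the dKO-labelled library, *Atp5g2* 39.3% and 39.7%, and *Atp5g3* 14.7% and 15.5%. *Atp5g1* was lower (1253 and 1187 CPM, log2 −0.08), *Atp5g2* lower by less (1071 and 1049, log2 −0.03, −0.04 to −0.02) and *Atp5g3* higher (402 and 409, log2 0.03). About 27.1% of the 31-base words at the end of *Atp5g1* occurred in other genes of the files, so its share is less certain.

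Several complex IV subunits have a tissue-restricted paralog, and 5 of these passed the UMI minimum. *Cox6b2*, the testis form of subunit 6B, had 62.7 CPM in WT (61.1 to 64.3), against 85.8 in the dKO-labelled library (84.1 to 87.6), 1.37-fold apart (log2 0.45, 0.41 to 0.50), while *Cox6b1* was lower there. Its share of the pair's UMIs was 10.1% in WT and 14.3% in the other library. *Cox4i2*, the lung form of subunit 4, had 2.37 and 3.63 CPM, from 227 and 396 UMIs (log2 0.62, 0.38 to 0.86). These were the 2 members at least 25% higher.

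*Cox7a1*, the heart and muscle form of subunit 7A, had 12.7 and 15.6 CPM (log2 0.30, 0.19 to 0.40), and its share beside *Cox7a2* (log2 −0.10) was 1.92% and 2.50%. The testis forms *Cox7b2* (160 and 166 UMIs, log2 −0.13, −0.45 to 0.19) and *Cox8c* (68 and 90 UMIs, log2 0.22, −0.25 to 0.70) had intervals that held 0. *Cox7a2l*, a paralog that joins respiratory complexes, had 135 CPM in each library (log2 −0.0016), and *Atp5s* 5.95 and 6.51 CPM (log2 0.13, −0.03 to 0.29). In barcodes of 10 to 100 UMIs, which hold free RNA, *Cox6b2* was at 61.2 and 78.1 CPM, from 108 and 153 UMIs.

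**Figure D3:**
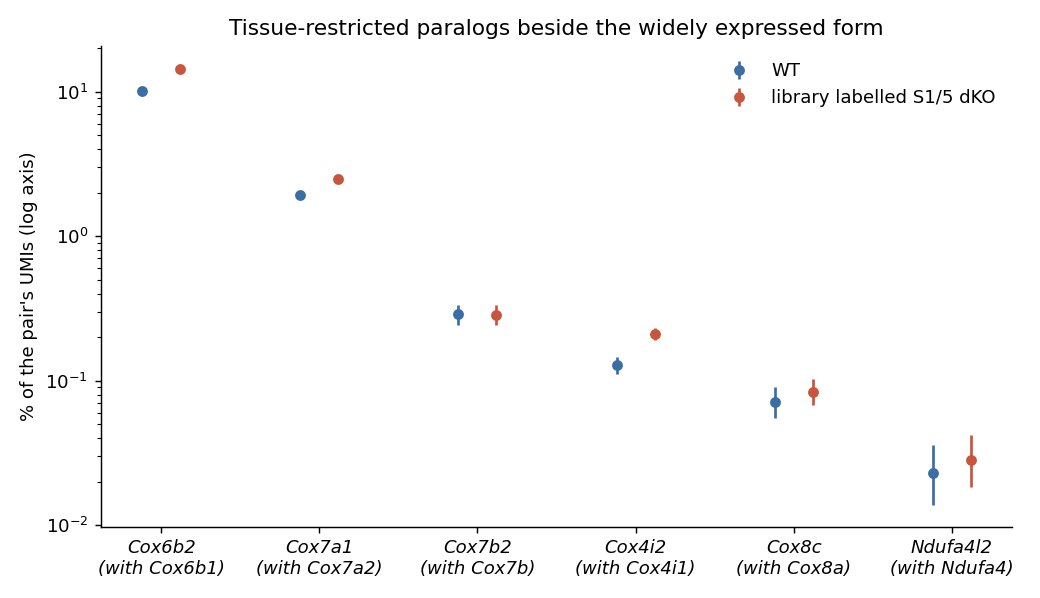
Share of each tissue-restricted paralog in the summed UMIs of its pair (y axis, %, log axis; points, the 2 libraries; lines, exact 95% binomial intervals), with the widely expressed form named under it. *Cox6b2*, *Cox7a1* and *Cox4i2* have separate intervals in the 2 libraries, and *Cox7b2*, *Cox8c* and *Ndufa4l2* overlap.

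Cells were thinned at random to 10000 UMIs to compare how many held a UMI of these paralogs, which left out 43 and 67 shallower cells. *Cox6b2* was found in 41.7% of WT cells (39.6% to 43.8%) and 50.8% of cells labelled S1/5 dKO (49.0% to 52.7%), and unthinned in 79.5% and 82.7%. *Cox7a1* was found in 11.7% and 14.5% (unthinned 38.7% and 40.5%). *Cox4i2* was found in 2.78% (2.13% to 3.56%) and 3.45% (2.81% to 4.18%), overlapping intervals, and its ratio at this depth was 0.29 (−0.18 to 0.77). The variance of *Cox6b2* UMIs per cell was 1.41 and 1.49 times the mean, against 1.06 and 1.01 times for *Cox7a1*. This measure rises with the mean for a like spread between cells. *Cox6b2* had 1368 and 2478 UMIs at this depth and *Cox7a1* 276 and 448, so the spreads are not compared at like counts.

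Promoters are shown for the *Cox6b* pair, whose members differed in opposite directions, and for *Ndufaf4* and *Ndufaf1*, the complex I assembly factors at the 2 ends. Each is the 120 bases before the RefSeq start (GRCm38.p6), with motifs of Nrf1 (GCGCATGCG) and of Ets factors (CCGGAAG), both known regulators of nuclear respiratory genes, in capitals where found on either strand. The windows are chr7:30626115-30626234 (minus strand), chr7:4753095-4753214 (minus), chr4:24897963-24898082 (plus) and chr2:119662835-119662954 (minus).
Cox6b1: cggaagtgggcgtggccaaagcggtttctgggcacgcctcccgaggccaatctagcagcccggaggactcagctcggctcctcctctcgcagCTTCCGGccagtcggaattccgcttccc
Cox6b2: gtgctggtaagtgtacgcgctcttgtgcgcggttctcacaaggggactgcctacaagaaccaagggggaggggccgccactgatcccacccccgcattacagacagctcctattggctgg
Ndufaf4: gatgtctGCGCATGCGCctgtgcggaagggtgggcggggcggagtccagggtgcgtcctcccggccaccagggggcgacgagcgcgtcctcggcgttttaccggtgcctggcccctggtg
Ndufaf1: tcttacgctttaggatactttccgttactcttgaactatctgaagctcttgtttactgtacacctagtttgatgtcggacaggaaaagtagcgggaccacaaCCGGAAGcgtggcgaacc
*Cox6b1* and *Ndufaf1* held CCGGAAG, *Ndufaf4* held overlapping matches to GCGCATGCG on both strands, and *Cox6b2* held neither motif. RefSeq promoters, from 250 bases before to 50 after the start, were matched for 72 of the 85 nuclear members. GCGCATGCG stood in 10 of them (13.9%) and in 1.95% of 27025 genes with a promoter, CCGGAAG in 16 (22.2%) and 9.93%, and AAGATGGCG, a Yy1 motif, in 8 (11.1%) and 1.64%. Of the 3 tissue-restricted forms matched, 0 held any of these letters. The *Cox7a* pair, not printed, also differed in opposite directions, and neither *Cox7a2* (log2 −0.10) nor *Cox7a1* (log2 0.30) held any of them. A match describes the sequence only.

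The genes around the respiratory chain did not share 1 direction. The 19 listed assembly factors of complex IV, of which 18 passed the UMI minimum, had a median log2 ratio of 0.07, with 8 intervals above 0 and 3 below. Over the 17 with at least 1000 UMIs, these are 47.1% and 17.6%, against 27.2% and 23.7% of all genes of that depth. *Cox17*, which delivers copper, had 104 CPM in WT and 120 in the dKO-labelled library (log2 0.21). *Coa3*, which acts on newly made COX1, had 155 and 180 (log2 0.22, the highest of the 18). The 3 with intervals below 0 were *Cox19* (log2 −0.13), *Cox18* (log2 −0.12) and *Cox20* (log2 −0.09). *Sdhb* and *Sdhc* of complex II, which has no mitochondrially encoded subunit, had log2 ratios of −0.12 and −0.11, and *Sdhd* of the same complex 0.08. The electron carriers *Cycs* and *Cyc1* had log2 ratios of 0.08 and 0.04.

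The lists of genes that make the mitochondrial mRNAs had medians near 0, with members on both sides. The 15 genes of mitochondrial DNA transcription and replication had a median log2 ratio of 0.0061, with 3 intervals above 0 (*Ssbp1*, *Tfam* and *Tefm*, log2 0.06 to 0.11) and 1 below (*Top1mt*, −0.16). The 14 of mitochondrial RNA processing had a median of 0.0053, with 1 interval above 0 (*Lrpprc*, 0.11) and 2 below (*Hsd17b10*, −0.12, and *Fastkd3*, −0.10). Over the 13 genes of each list with at least 1000 UMIs, the first list gave 23.1% above and 7.69% below. The second gave 7.69% and 15.4%, against 27.2% and 23.7% of all genes of that depth. The 9 nuclear regulators that passed had a median of 0.0070, among them *Nrf1* (log2 0.04, −0.03 to 0.10), *Gabpa* (log2 0.0071) and *Yy1* (101 and 92.7 CPM, log2 −0.13). The 78 mitochondrial ribosomal protein genes, whose products translate the mitochondrial mRNAs, had 57 ratios above 0 and 41 intervals above 0 against 12 below. With at least 20000 UMIs, where all genes gave 46.2% above and 31.3% below, 56 of them gave 51.8% and 21.4%. Of 25 import genes, 18 were above 0 and 14 intervals lay above 0 against 4 below. The 13 of that depth gave 69.2% above and 15.4% below. In these pathway lists 2 genes with at least 500 UMIs were at least 25% higher or 20% lower, *Mrpl24* (192 and 240 CPM, log2 0.33) and *Mrpl34* (453 and 329 CPM, log2 −0.46). They are 1 higher and 1 lower of the 78 mitochondrial ribosomal protein genes. Of all genes with at least 1000 UMIs, 2.3% were that much higher and 2.71% that much lower. *Mrpl34* lies in the chromosome 8 stretch described above.

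Cells differed far more in the mitochondrial share than in the nuclear one. At 10000 UMIs per cell, the mitochondrial share averaged 1.79% with an SD of 0.555 over 2193 WT cells and 1.90% with an SD of 0.527 over 2843 cells labelled S1/5 dKO. These SDs were 4.19 and 3.86 times what sampling of UMIs alone gives. The nuclear share averaged 3.36% (SD 0.307) and 3.26% (SD 0.326), only 1.70 and 1.84 times that of sampling. The libraries overlapped widely in both shares. Of cells labelled S1/5 dKO, 60.3% lay above the WT median of the mitochondrial share and 63.8% below that of the nuclear share.

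**Figure D4:**
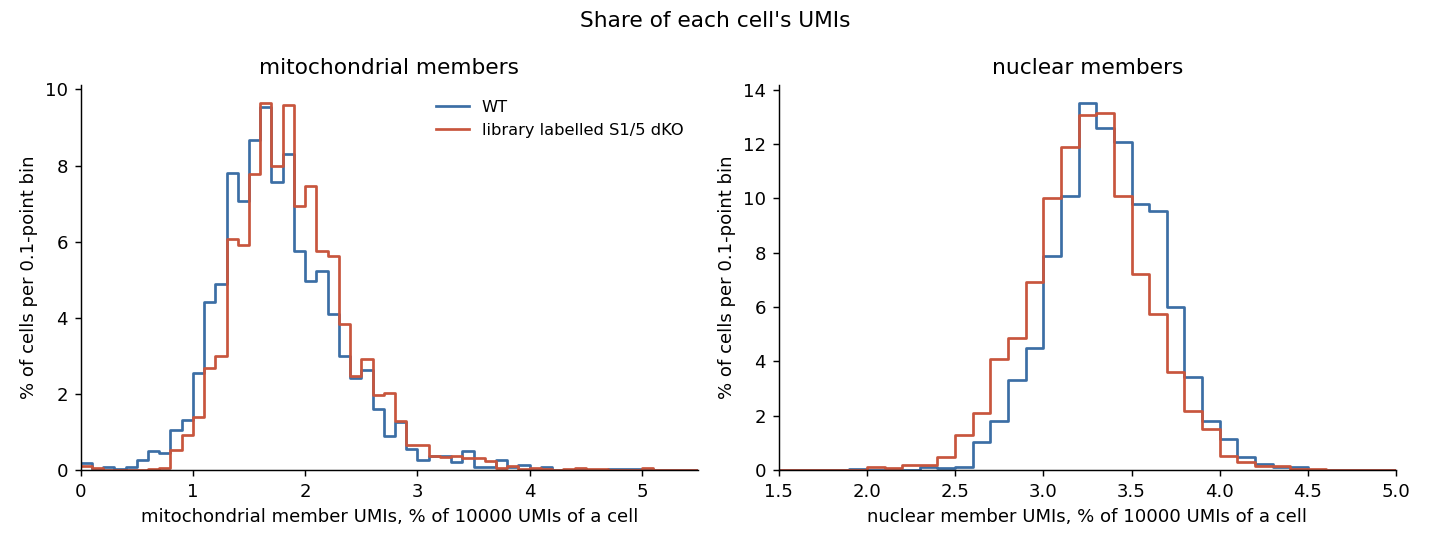
Share of each cell's 10000 UMIs that came from mitochondrial (left) and nuclear members (right), as the percentage of cells (y axis) in bins of 0.1 percentage points (x axis), for 2193 WT cells and 2843 cells labelled S1/5 dKO. The distributions overlap, with medians of 1.72% and 1.84% for the mitochondrial and 3.37% and 3.26% for the nuclear members.

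A cell's mitochondrial share said little about its nuclear share. Across cells, the correlation of the mitochondrial share with the nuclear share of the remaining UMIs was −0.06 in WT and −0.08 in the other library (Pearson), whereas complex I and complex IV nuclear sums correlated at 0.34 and 0.40. The 5 most counted mitochondrial mRNAs correlated with each other at 0.30 to 0.68 in WT and 0.19 to 0.65 in the other library. The lowest pair in each was *mt-Co1* with *mt-Cytb*. These points share a library and a cell's capture, and are given as descriptions.

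The make-up of mitochondrial UMIs varied between cells along that pair. In cells with at least 300 mitochondrial UMIs (2135 and 2780 cells), *mt-Co1* took 6.74% of mitochondrial UMIs at the 5th percentile of WT cells and 15.2% at the 95th, and *mt-Cytb* 12.7% and 23.8%. Their shares correlated at −0.59 in each library, where drawing UMIs from fixed shares would give −0.16. The SD of the *mt-Cytb* share was 2.29 and 2.28 times that of sampling and that of *mt-Co1* 2.16 and 2.19 times, the 2 highest of the 13 genes. Neither share followed the cell's UMIs or its share of 6 mitotic genes (correlations of 0.0009 to 0.06), and *mt-Cytb* took a lower share in cells where mitochondrial mRNAs took a larger share of all UMIs (correlations of −0.36 and −0.31). The log2 ratio of *mt-Co1* to *mt-Cytb* per cell had a median of −0.75 in WT and −0.85 in the dKO-labelled library. Its correlations with the 85 nuclear members ran from −0.24 to 0.10 and from −0.26 to 0.12, with *Atp5g1* lowest in both.

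Depth moved with the mitochondrial share and differed between the libraries. Each library's cells were split into 5 bins of equal size by UMIs, so bins of the same rank were not matched in depth. Median UMIs were 24644 in WT and 21673 under the dKO label in the shallowest bin, and 64741.5 and 56776.5 in the deepest. At each rank the dKO-labelled cells had the lower median. Cells with more UMIs had lower mitochondrial shares, from 1.961% in the shallowest bin of WT cells to 1.651% in the deepest, and from 2.06% in the shallowest to 1.82% in the deepest under the dKO label. Compared by rank of bin and not at like depth, the log2 ratio of the mitochondrial sum was 0.07, 0.03, 0.13, 0.09 and 0.14. That of the nuclear sum was −0.03, −0.05, −0.05, −0.05 and −0.05. All 13 mitochondrial genes were above 0 in the 3 deepest bins, 11 in the first and 9 in the second, where *mt-Co1*, *mt-Co3*, *mt-Nd1* and *mt-Nd5* were not. In the second bin 3 of the 13 intervals lay above 0 and 2 below, *mt-Nd1* (log2 −0.06, −0.10 to −0.02) and *mt-Co1* (log2 −0.02, −0.05 to −0.0014). *mt-Cytb* ran from 0.13 to 0.20 over the bins. *Cox6b2* ran from 0.29 to 0.58 and *Cox4i1* from −0.13 to −0.08. Among cells with 20000 to 60000 UMIs only (1808 and 2454 cells), the mitochondrial sum had a log2 ratio of 0.08 and the nuclear sum −0.06.

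**Figure D5:**
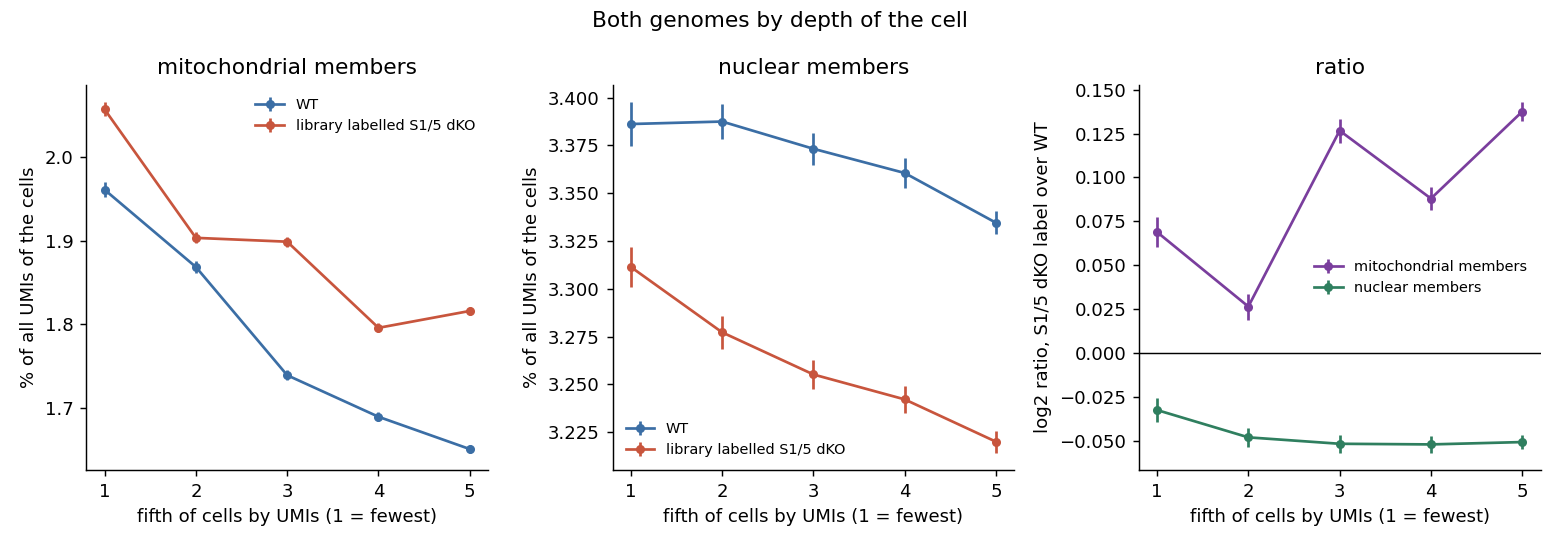
Share of all UMIs from mitochondrial (left) and nuclear members (middle) and the log2 ratio of the libraries (right) in 5 bins of cells ordered by UMIs within each library (x axis); lines on points are exact 95% counting intervals and the y axes do not start at 0. The mitochondrial ratio stays above 0 in every bin, from 0.03 to 0.14, and the nuclear ratio below it. Bins of the same rank are not matched in depth, with lower median UMIs under the dKO label.

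The direction of both sums was the same in the cell subsets examined. In the 25% of cells with the most mitotic gene UMIs the mitochondrial log2 ratio was 0.08, and 0.10 in the others. It was 0.09 in cells with no *Nanog* UMI and 0.09 in cells with at least 1. In the 5% of cells with the lowest share of cytosolic ribosomal protein mRNAs (112 and 146 cells), mitochondrial mRNAs took 1.93% in WT and 2.14% in the other library (log2 0.15), and nuclear members 3.06% and 2.91%.

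The members also give the limit on cell quality, since cells over 5% mt- UMIs were left out. These were 26 barcodes in WT and 29 in the other library, with a median of 9.51% and 9.21% mt- UMIs and of 6794 and 6667 UMIs. Only 10 and 13 kept cells lay between 4% and 5%. In the barcodes left out, nuclear members took 3.44% and 3.18% of UMIs, against 3.36% and 3.25% in cells. In barcodes of 10 to 100 UMIs the mitochondrial mRNAs took 9.35% and 9.48%, at 2.28 and 2.56 UMIs per barcode against medians of 673 and 629 per cell, and the nuclear members 3.01% and 2.94%.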

How the data were processed

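The authors sequenced 3′ libraries of 2 samples, and used Cell Ranger 3.0.2 with the mm10 reference to obtain UMI counts. The deposited matrices hold these raw counts for every possible barcode. No replicates were made, so no test was run. Samples were grouped by the genotype in the labels. All other values are derived here from those counts.

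The cell limits (at least 1000 genes, at most 5% mt- UMIs) are those of the study, and doublets were not called. Counts were summed over the cells of a library and divided by all their UMIs, and the log2 ratio (dKO label over WT) has an exact conditional binomial interval. A share has an exact Clopper-Pearson interval and a level an exact Poisson interval, all at 95%. The mitochondrial to nuclear ratio has a 95% interval by normal approximation on the log scale. Genes needed at least 50 UMIs over both libraries. Cell shares were compared after thinning to 10000 UMIs, with a fixed seed. Positions are from GENCODE for GRCm38, promoters from RefSeq. Of the scripts, only the log2 ratio of a gene and its interval were tested on simulated data. Python 3.11.15, numpy 2.4.6, scipy 1.17.1, pandas 2.3.3 and matplotlib 3.10.9 were used, and edgeR 4.0.16 only for an alternative scaling.

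The members, gene lists and tests were chosen with earlier results of these data known. The genes named are all 13 mt- genes, the 5 highest and 5 lowest ratios among nuclear members with at least 500 UMIs, the paralog families, *Smad1*, *Smad5*, and genes of the other pathway lists at least 25% higher or 20% lower with at least 500 UMIs. Named beside these, after their values were seen, were *Cox17*, *Coa3*, *Sdhb*, *Sdhc*, *Sdhd*, *Cycs*, *Cyc1*, *Nrf1*, *Gabpa* and *Yy1*, for their roles, and *Sparc*. Also named after their values were seen, for their intervals, were *Cox18*, *Cox19*, *Cox20* and the 7 genes of mitochondrial DNA and RNA. The genes with at least 20000 UMIs, the cells with 20000 to 60000 UMIs and the make-up of mitochondrial UMIs were added after seeing the data. Alternatives varied the limits on cells and genes, the total, the scaling and the thinning.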

Additional observations from a re-analysis of the deposited data

Results flagged for a closer look

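Barcodes with 10 to 100 UMIs, which were used in no comparison between cells, had a slightly higher summed mitochondrial share under the dKO label. The log2 ratio of their mitochondrial share was 0.0197 (0.01 to 0.03, exact interval for counting error), with 9.35% of 1764311 UMIs in WT and 9.48% of 1958216 in the other library. The WT barcodes are the control level here. In the same barcodes the nuclear members had a log2 ratio of −0.03 (−0.05 to −0.01). Of the 13 mitochondrial genes, 5 were above 0 there and 8 below. The interval lay above 0 for *mt-Cytb* (0.09, 0.06 to 0.11) and *mt-Atp6* (0.03, 0.02 to 0.05), and below 0 for *mt-Nd1* (−0.07, −0.14 to −0.01).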

How the results depend on the processing

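The summed ratios and the median of the nuclear members kept their direction under every alternative run. The mitochondrial log2 ratio of 0.10 ran from 0.08 to 0.11, and moved beyond its counting interval with TMM scaling (0.109), with median ratio scaling (0.107), with at most 3% mt- UMIs (0.091), without cells over 2 times the median UMIs (0.0925), with every cell thinned to 10000 UMIs (0.092), with the mean of the per-cell shares (0.0862) and in cells with 20000 to 60000 UMIs (0.0767, added after seeing the data). The nuclear ratio of −0.05 was −0.0389 with TMM and −0.0414 with median ratio scaling, and −0.0551 in cells with 20000 to 60000 UMIs. The mitochondrial to nuclear log2 ratio of 0.15 was 0.138 with at most 3% mt- UMIs, 0.139 when thinned, 0.142 without cells over 2 times the median UMIs, 0.135 with the mean of the per-cell shares and 0.132 in cells with 20000 to 60000 UMIs. The median of the nuclear members ran from −0.04 to −0.03. The count of 2 members at least 25% higher or 20% lower was 3 with TMM or median ratio scaling, with *mt-Nd3* added, and 5 when thinned (4 higher, 1 lower), where *Cox4i2* was not among them and *Cox8c*, with 17 UMIs in each library, was. With TMM scaling 57 of the 85 nuclear members lay below 0, with median ratio scaling 59 and with UMIs other than mt- as the total 61, against 62, while the 13 mitochondrial members stayed above 0 and the 11 nuclear complex IV subunits below it under these scalings. Of 456 values of single genes, 404 stayed within their counting interval, 51 moved beyond it and 1 reversed. Among these were 156 values of mt- genes, of which 119 stayed and 36 moved. The reversed value was *mt-Nd5* when thinned (−0.0029, from 0.08). The cause was not tested.

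No paired analysis was possible because each group has 1 library, and leaving out a replicate could not be run for the same reason. Culture, loading and sequencing of a library cannot be told apart from its genotype. Depth limits *Cox4i2*, *Cox7b2*, *Cox8c* and *mt-Nd6*, whose intervals are wide.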
